A study of Mus musculus with 12 samples.

Results

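The platelet-derived growth factor (PDGF) system of the mouse gut stroma is described here through its 6 genes, the 4 ligand genes Pdgfa, Pdgfb, Pdgfc and Pdgfd and the 2 receptor genes Pdgfra and Pdgfrb. The genes were chosen by name, 6 of the 32052 genes in the deposited table, and all 6 passed the filter on low counts. RNA sequencing had been done on stromal cells of C57Bl6-background mice aged 8 to 12 weeks, depleted of epithelium (EPCAM) and leukocytes (CD45) and then divided by the Rspo3-GFP transgene, a reporter of the gene for the Wnt-enhancing factor R-spondin 3. The 12 libraries form 4 groups of 3: GFP-positive small intestinal cells, GFP-negative small intestinal cells, GFP-positive colonic cells and GFP-negative colonic cells. Every group comes from the same depletion and the same transgene, and a GFP-negative group is the remaining stroma of all kinds, not one cell type. The labels do not say whether replicates came from separate animals, so p-values measure the spread between these libraries, which may be technical.

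PDGF ligands are secreted dimers that bring a pair of receptor chains together and switch on their tyrosine kinase activity. PDGF-A and PDGF-C act mainly through the alpha receptor, PDGF-B through both receptors and PDGF-D mainly through the beta receptor. In the developing and adult intestine, Pdgfra marks fibroblasts, among them the subepithelial telocytes that lie against the epithelium, and Pdgfrb marks pericytes and many fibroblasts, while endothelial Pdgfb is known for recruiting pericytes to vessels.

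Library totals ran from 6489835 to 12286054 estimated counts, with 18933 to 23338 genes detected. Rspo3 itself stood at 191 to 196 CPM, counts scaled to library size, in GFP-positive and 4.50 to 13.7 CPM in GFP-negative small intestinal libraries, and at 117 to 161 CPM in GFP-positive and 2.28 to 6.51 CPM in GFP-negative colonic libraries. The 8 fibroblast markers summed to 8599 to 65268 CPM across the 12 libraries. The GFP-positive libraries also carried lymphatic endothelial RNA, with 8 markers summing to 4327 to 15071 CPM against 201 to 593 CPM in GFP-negative libraries of the small intestine, and to 18232 to 21328 CPM against 208 to 340 CPM in the colon. Epithelial markers, which the EPCAM sort should remove, summed to 2.41 to 11.3 CPM in GFP-positive and 276 to 992 CPM in GFP-negative small intestinal libraries, and to 311 to 1680 CPM and 1013 to 2397 CPM in the GFP-positive and GFP-negative colonic libraries. Leukocyte markers, which the CD45 depletion should remove, summed to 26.0 to 95.4 CPM in GFP-positive small intestinal libraries and to 52.9, 85.2 and 2959 CPM in GFP-negative ones, where replicate 3 stood apart, and to 355 to 399.7 CPM in GFP-positive and 152 to 302 CPM in GFP-negative colonic libraries.

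GFP-positive cells had less RNA of several PDGF genes in both gut regions. In the small intestine the ligand genes Pdgfa and Pdgfb fell, 3.37-fold and 19.3-fold below the GFP-negative level. In the colon the ligand gene Pdgfc fell 10.2-fold, and the receptor genes Pdgfra and Pdgfrb fell 2.59-fold and 2.86-fold. The response of Pdgfc differed between the regions. That of Pdgfra passed the same test, but its calls in the colon and between regions were lost under several other settings, given with its values. Pdgfd passed the test in no comparison. A gene was called when its p-value from edgeR's quasi-likelihood test, adjusted by the Benjamini-Hochberg method over 16757 genes, was under 0.05.

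In the small intestine 2 of 6 members were called in GFP-positive against GFP-negative cells, both lower, where 10.9% of all tested genes were called either way and 6.63% lower. In the colon 3 of 6 were called, all lower, where 8.69% of all tested genes were called and 4.06% lower. In the test of the difference between these 2 effects, 2 of 6 members were called, both with a negative difference, against 2.06% of all tested genes, 1.16% with a positive and 0.895% with a negative difference. The ranges of the 3 GFP-positive and 3 GFP-negative libraries did not overlap for 3 of 6 members in the small intestine and for 5 of 6 in the colon, while the same held for 21.9% and 35.6% of all tested genes. In bulk samples, fewer cells of a type and less RNA per cell cannot be told apart.

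**Figure D1:**
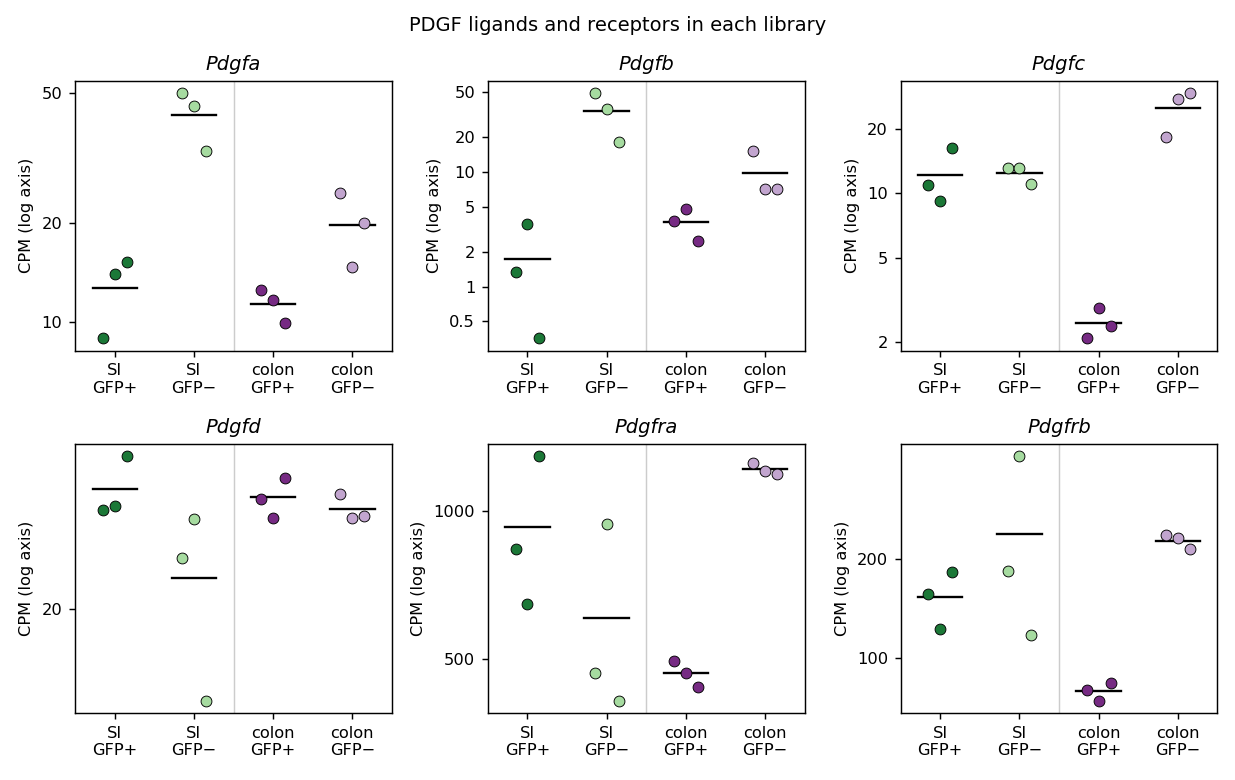
Level of each PDGF gene in CPM (log axis) in 12 libraries; points are libraries (replicates 1 to 3 from left to right in each group), bars are group means, and GFP+ and GFP− stand for Rspo3-GFP-positive and Rspo3-GFP-negative stromal cells of the small intestine (SI) and colon. Pdgfc is at 2.09 to 2.91 CPM in the GFP-positive colonic libraries and at 9.26 CPM or above in all others, whereas Pdgfd lies between 12.4 and 44.6 CPM in all 12.

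**Figure D2:**
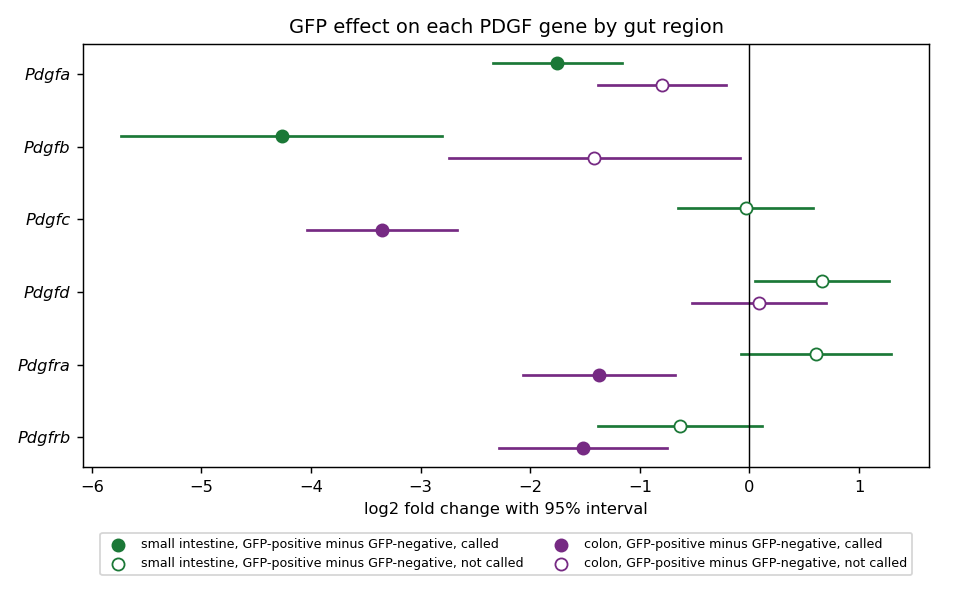
Log2 fold change of each PDGF gene between GFP-positive and GFP-negative cells in the small intestine (green) and colon (purple), with 95% intervals from edgeR's quasi-likelihood fit; filled points are called at an adjusted p under 0.05. Pdgfa and Pdgfb are called in the small intestine, and Pdgfc, Pdgfra and Pdgfrb in the colon.

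Pdgfa, on chromosome 5 at 138976014 to 138997370 on the minus strand (GRCm38), encodes the A chain that signals through the alpha receptor. In the small intestine it stood at 8.90, 13.99 and 15.2 CPM in GFP-positive libraries and at 49.8, 45.4 and 33.1 CPM in GFP-negative libraries (12.7 ± 3.36 and 42.8 ± 8.64 CPM, SD, n = 3 each). Every GFP-positive library lay below every GFP-negative one, and the log2 fold change was -1.75 ± 0.27 (SE; edgeR adjusted p = 0.00160). In the colon Pdgfa stood at 12.5, 11.6 and 9.94 CPM in GFP-positive and at 24.6, 14.7 and 20.0 CPM in GFP-negative libraries. These groups did not overlap either, but the log2 fold change of -0.80 ± 0.27 did not pass (edgeR adjusted p = 0.0982), and the difference between the 2 regions' effects, 0.95 ± 0.38, did not pass either (edgeR adjusted p = 0.254).

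Pdgfa also differed between regions among GFP-negative cells. Its level there was lower in colonic than in small intestinal libraries, with no overlap and a log2 fold change of -1.11 ± 0.27 (edgeR adjusted p = 0.0383). It was the 1 member of 6 called in colonic against small intestinal GFP-negative cells, where 4.21% of all tested genes were called, 2.2% higher and 2.01% lower in the colon. The call was lost, with adjusted p of 0.0562 to 0.178, when any of the 6 colonic libraries or GFP-negative small intestinal replicate 1 or 2 was left out, and on the deposited TPM scale (-0.39, limma adjusted p = 0.227) or when only the libraries compared were fitted (0.0634). Among GFP-positive cells the colonic and small intestinal ranges overlapped, at a log2 fold change of -0.16 ± 0.27. The annotation places the antisense gene 6330403L08Rik over Pdgfa, with 1.43 to 12.1 CPM of its own across libraries, and whether the counting used strand is not given in the sources used here.

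Epithelial markers, among other lists, were lower in GFP-positive small intestinal cells, where Pdgfa also fell. Called lower too were 6 of 8 enteric glia, 6 of 9 blood endothelial, 5 of 8 smooth muscle and 5 of 8 tested pericyte markers. Called higher were 7 of 8 fibroblast, 7 of 8 lymphatic endothelial and 6 of 8 trophocyte (deep fibroblast) markers. Of 9 epithelial markers, 8 were called lower in GFP-positive cells, and Myo7b, a brush border myosin gene, was at 0 in all 3 GFP-positive libraries. In GFP-negative small intestinal replicates 1 to 3, epithelial markers summed to 674, 276 and 992 CPM, beside Pdgfa at 49.8, 45.4 and 33.1 CPM. GFP-negative colonic libraries had epithelial sums of 1013 to 2397 CPM and Pdgfa at 14.7 to 24.6 CPM. The part of these cell types in the Pdgfa difference was not tested. Without GFP-negative replicate 3, the library with the most leukocyte RNA, the small intestinal calls of Pdgfa and Pdgfb were both kept.

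Pdgfb, on chromosome 15 at 79995874 to 80014977 on the minus strand, encodes the B chain, the ligand that endothelium presents to pericytes. Its small intestinal level was 1.33, 3.55 and 0.35 CPM in GFP-positive libraries and 48.5, 35.6 and 18.3 CPM in GFP-negative libraries. The lowest GFP-negative library was far above the highest GFP-positive one, and the log2 fold change was -4.27 ± 0.67 (edgeR adjusted p = 0.00193). The GFP-positive values rest on 3 to 36 estimated counts per library, which leaves the size of the fold wide, with a 95% interval of -5.73 to -2.81 on the log2 scale.

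In the colon Pdgfb stood at 3.74, 4.75 and 2.51 CPM in GFP-positive and at 15.3, 7.08 and 7.09 CPM in GFP-negative libraries. The groups did not overlap, but the log2 fold change of -1.42 ± 0.61 did not pass (edgeR adjusted p = 0.219). The effect in the colon minus that in the small intestine was 2.85 ± 0.87, which did not pass (edgeR adjusted p = 0.122). Without GFP-positive small intestinal replicate 2, the library with the most Pdgfb of its group, that difference was 3.84 with an adjusted p of 0.0369. The other 11 fits that left out 1 library did not pass (edgeR adjusted p up to 0.285). Colonic GFP-negative libraries lay below small intestinal ones without overlap, at a log2 fold change of -1.80 ± 0.60 that did not pass (edgeR adjusted p = 0.118).

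Blood endothelial and pericyte markers, but not lymphatic endothelial ones, moved with Pdgfb in the small intestine. There 6 of 9 blood endothelial and 5 of 8 tested pericyte markers were called lower in GFP-positive cells. The blood endothelial markers summed to 307 to 950 CPM in GFP-positive and 633 to 2220 CPM in GFP-negative libraries, and Sox17, an arterial transcription factor gene, was at 0 in the GFP-positive libraries. The pericyte markers summed to 362 to 486 CPM in GFP-positive and 452 to 1580 CPM in GFP-negative libraries, with Higd1b and Cox4i2 at 0 in the GFP-positive ones. In the colon 4 of 9 blood endothelial markers were called lower and 2 higher in GFP-positive cells, and 3 of 8 tested pericyte markers were called lower. The blood endothelial markers summed to 759 to 861 CPM in GFP-positive and 206 to 841 CPM in GFP-negative colonic libraries. Of 8 markers shared by all endothelium, 7 were called higher in GFP-positive colonic cells, with sums of 1832 to 2157 CPM against 152 to 485 CPM in GFP-negative ones. In the small intestine 1 of these 8 was called lower, with sums of 563 to 2091 CPM in GFP-positive and 455 to 1610.2 CPM in GFP-negative libraries. The part of these cell types in the Pdgfb values was not tested.

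Pdgfc, on chromosome 3 at 81036416 to 81214040 on the plus strand, encodes a latent ligand whose CUB domain must be cut off before it can bind the alpha receptor. In the colon it stood at 2.09, 2.91 and 2.40 CPM in GFP-positive libraries and at 18.3, 27.8 and 29.5 CPM in GFP-negative libraries (2.46 ± 0.41 and 25.2 ± 6.01 CPM, SD, n = 3 each). The groups were far apart, and the log2 fold change was -3.35 ± 0.32 (edgeR adjusted p = 8.47e-05). Small intestinal libraries had 11.0, 9.26 and 16.3 CPM in GFP-positive and 13.1, 13.2 and 11.1 CPM in GFP-negative libraries. These ranges overlapped, and the log2 fold change was -0.03 with a 95% interval of -0.65 to 0.58.

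The colonic effect of GFP on Pdgfc minus the small intestinal one was -3.32 ± 0.42 (edgeR adjusted p = 0.00335). Among GFP-positive cells Pdgfc was 4.93-fold lower in the colon than in the small intestine, a log2 fold change of -2.30 ± 0.31 with no overlap (edgeR adjusted p = 0.00155). It was the 1 member of 6 called in that comparison, where 4.57% of all tested genes were called, 2.75% higher and 1.81% lower in the colon. Among GFP-negative cells the colonic libraries lay above the small intestinal ones without overlap, at a log2 fold change of 1.02 ± 0.28 that did not pass (edgeR adjusted p = 0.0678). The order of mean levels was GFP-negative colon, then the 2 small intestinal groups, which overlapped each other, then GFP-positive colon.

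Telocyte markers moved with Pdgfc in the colon. There 9 of 10 were called lower in GFP-positive cells, and their sum was 498 to 736 CPM in GFP-positive against 2066 to 2969 CPM in GFP-negative libraries. Among small intestinal cells 1 of 10 was called lower, with sums of 444 to 528 CPM in GFP-positive and 627 to 1533 CPM in GFP-negative libraries. The 8 fibroblast markers had a median log2 fold change of -0.27 in the colon, where they summed to 20479 to 25145 CPM in GFP-positive and 26710 to 29585 CPM in GFP-negative libraries. The part of telocytes in the Pdgfc and receptor values was not tested.

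The bases before the RefSeq starts of Pdgfc and Pdgfra are shown because both genes were called lower in GFP-positive colonic cells and in the test between regions. The Pdgfc window ends just before the GENCODE start of the gene at 81036416. That of Pdgfra ends at 75152250, short of the GENCODE start at 75152292. The bases checked downstream of it begin before that start, so their absence from GENCODE transcripts follows from the later start. Those of Pdgfc were found in one. The sequences are 250-base RefSeq windows on the plus strand of GRCm38.p6, chr3:81036166-81036415 for Pdgfc and chr5:75152001-75152250 for Pdgfra, with CpG dinucleotides in capitals.
Pdgfc: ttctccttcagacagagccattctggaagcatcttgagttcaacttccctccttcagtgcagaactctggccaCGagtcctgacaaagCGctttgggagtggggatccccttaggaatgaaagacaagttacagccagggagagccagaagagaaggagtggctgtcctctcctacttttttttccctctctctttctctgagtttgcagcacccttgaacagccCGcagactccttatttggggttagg
Pdgfra: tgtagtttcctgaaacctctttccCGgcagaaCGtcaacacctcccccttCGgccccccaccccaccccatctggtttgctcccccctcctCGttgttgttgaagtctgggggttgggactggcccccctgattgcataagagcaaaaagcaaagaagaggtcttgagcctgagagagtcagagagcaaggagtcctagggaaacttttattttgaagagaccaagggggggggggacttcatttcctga
The Pdgfc window has 3 CpG dinucleotides and 50.8% G and C, and the Pdgfra window has 4 and 54.4%. Over 32851 RefSeq windows of the same length the medians were 6 CpG dinucleotides and 52.4%, so neither window was denser in CpG than most. Both strands were searched for a GC box (GGGCGG, held by 32.7% of all windows), a TATA box (TATAAA, held by 12.4%), a CCAAT box (33.8%), an AP-1 element (TGANTCA, held by 6.75%) and a GLI core (GACCACCC, held by 0.703%). None of these letters was found in either window.

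Pdgfd, on chromosome 9 at 6168584 to 6378850 on the plus strand, encodes the second latent ligand, which after cleavage acts on the beta receptor. Small intestinal libraries had 33.6, 34.3 and 44.6 CPM in GFP-positive and 26.2, 32.2 and 12.4 CPM in GFP-negative libraries. The lowest GFP-positive library was just above the highest GFP-negative one, and the log2 fold change of 0.66 ± 0.28 did not pass (edgeR adjusted p = 0.173). Without GFP-negative replicate 2, the highest of its group, it was 0.96 with an adjusted p of 0.0429. The other 11 fits that left out 1 library did not pass, with log2 fold changes down to 0.36 (edgeR adjusted p up to 0.372). In the colon Pdgfd stood at 35.6, 32.4 and 39.9 CPM in GFP-positive and at 36.5, 32.3 and 32.7 CPM in GFP-negative libraries. These ranges overlapped, at a log2 fold change of 0.09 with a 95% interval of -0.52 to 0.70. Its difference between the regions' effects was -0.58 ± 0.40, and between regions it stood at -0.06 ± 0.28 among GFP-positive and 0.52 ± 0.28 among GFP-negative cells (edgeR adjusted p = 0.590, 0.954 and 0.376).

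Pdgfra, on chromosome 5 at 75152292 to 75198215 on the plus strand, encodes the alpha receptor. In the colon it stood at 496, 468 and 439 CPM in GFP-positive libraries and at 1250, 1203 and 1185 CPM in GFP-negative libraries (468 ± 28.3 and 1213 ± 33.3 CPM, SD, n = 3 each). Replicates were close in both groups and the groups far apart, at a log2 fold change of -1.37 ± 0.32 (edgeR adjusted p = 0.0166). With the replicate number as a block this call was lost (-1.38, adjusted p = 0.0524). Small intestinal libraries had 835, 648 and 1291 CPM in GFP-positive and 469, 940 and 410 CPM in GFP-negative libraries. There the ranges overlapped through GFP-negative replicate 2, and the log2 fold change of 0.61 ± 0.32 did not pass (edgeR adjusted p = 0.274).

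The GFP effect on Pdgfra in the colon minus that in the small intestine was -1.98 ± 0.45 (edgeR adjusted p = 0.0425). This call was lost, with adjusted p of 0.0555 to 0.113, on leaving out any of 10 of the 12 libraries, and was kept without GFP-positive or GFP-negative small intestinal replicate 2. It was also lost with the replicate number as a block (-2.03, adjusted p = 0.0924) and on the deposited TPM scale (-1.93, limma adjusted p = 0.111). The colonic call was lost on leaving out any of the 6 colonic libraries, with adjusted p of 0.0539 to 0.0777, while the log2 fold change stayed between -1.41 and -1.32. Without GFP-negative small intestinal replicate 2, Pdgfra was called higher in GFP-positive small intestinal cells, at 1.08 (edgeR adjusted p = 0.0146). It was not called there in the other 11 fits that left out 1 library (edgeR adjusted p up to 0.664).

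Fibroblast markers were higher in GFP-positive cells of the small intestine, where Pdgfra had a positive value. There 7 of 8 were called, with sums of 42413 to 65268 CPM in GFP-positive and 8599 to 25897 CPM in GFP-negative libraries. Trophocyte markers, of deep Cd81+ fibroblasts below the crypts, were called higher for 6 of 8 genes in the small intestine and 4 of 8 in the colon. Their part in the Pdgfra values was not tested.

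Between regions, Pdgfra passed in neither population. GFP-positive colonic libraries lay below all GFP-positive small intestinal ones, at a log2 fold change of -0.98 ± 0.32 (edgeR adjusted p = 0.117). GFP-negative colonic libraries lay above all GFP-negative small intestinal ones, at 1.00 ± 0.32 (edgeR adjusted p = 0.102). Without GFP-negative small intestinal replicate 2 both passed, at -0.98 (adjusted p = 0.0222) and 1.47 (adjusted p = 0.00678). Neither passed in the other 11 fits that left out 1 library (edgeR adjusted p up to 0.383 and 0.241). Over the members, ranges did not overlap for 3 of 6 in the first comparison and 5 of 6 in the second, where the same held for 24.7% and 22.6% of all tested genes.

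Pdgfrb, on chromosome 18 at 61045150 to 61085061 on the plus strand, encodes the beta receptor. In the colon it stood at 80.1, 73.9 and 83.9 CPM in GFP-positive libraries and at 236, 232 and 214 CPM in GFP-negative libraries. The groups were well separated, at a log2 fold change of -1.52 ± 0.35 (edgeR adjusted p = 0.0166). The call was lost, with adjusted p of 0.0515 to 0.0844, on leaving out any colonic library other than GFP-negative replicate 3, while the log2 fold change stayed between -1.55 and -1.47.

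In the small intestine Pdgfrb stood at 156, 122 and 182 CPM in GFP-positive and at 184, 410 and 117 CPM in GFP-negative libraries. GFP-negative replicate 2 was the highest of all 12 libraries and the groups overlapped. The log2 fold change of -0.63 ± 0.35 did not pass (edgeR adjusted p = 0.303), and it was 0.03 without that replicate. The difference between the regions' effects was -0.89 ± 0.49 (edgeR adjusted p = 0.455), and -1.55 (adjusted p = 0.00990) without it. That difference did not pass in the other 11 fits that left out 1 library (edgeR adjusted p up to 0.653). Among GFP-positive cells the colonic libraries lay below the small intestinal ones without overlap, at a log2 fold change of -0.95 ± 0.35 that did not pass (edgeR adjusted p = 0.177). Without GFP-negative small intestinal replicate 2 or 3 that comparison passed, with adjusted p of 0.0134 and 0.0479. It did not pass in the other 10 fits that left out 1 library (edgeR adjusted p up to 0.415). Among GFP-negative cells the regions overlapped, at a log2 fold change of -0.06 with a 95% interval of -0.81 to 0.68.

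Smooth muscle markers, and fewer of the pericyte markers, were called lower in the colon, where Pdgfrb fell. There 6 of 8 smooth muscle markers were called lower in GFP-positive cells, with sums of 663 to 772 CPM in GFP-positive and 3119 to 4051 CPM in GFP-negative libraries. Of 8 tested pericyte markers 3 were called lower. Pericyte markers summed to 140 to 160 CPM in GFP-positive and 285 to 591 CPM in GFP-negative colonic libraries, with Higd1b at 0 in the GFP-positive ones. In the small intestine, where Pdgfrb was not called, 5 of 8 smooth muscle and 5 of 8 tested pericyte markers were called lower too. The pericyte list had a median log2 fold change of -1.40 in the colon and of -3.34 in the small intestine. Smooth muscle markers there summed to 1053 to 1242 CPM in GFP-positive and 1613 to 4378 CPM in GFP-negative libraries. The part of smooth muscle and pericytes in the Pdgfrb values was not tested.

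Levels of different genes were compared in TPM, a transcript abundance corrected for length. The summed TPM of the 4 ligands was low, 2.13 to 3.46 in GFP-positive and 3.89 to 9.75 in GFP-negative small intestinal libraries, and 3.04 to 4.15 in GFP-positive and 6.01 to 7.04 in GFP-negative colonic libraries. Pdgfra alone reached 12.8 to 37.4 TPM in GFP-positive and 11.3 to 22.9 TPM in GFP-negative small intestinal libraries, and 15.9 to 18.8 TPM in GFP-positive and 43.5 to 51.1 TPM in GFP-negative colonic libraries. Receptor RNA of the alpha type was thus more abundant than that of all 4 ligands together in every library.

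The leading ligand differed between groups. Pdgfd gave 48.2 to 55.3% of ligand TPM in GFP-positive and 12.0 to 21.4% in GFP-negative small intestinal libraries. In the colon it gave 46.5 to 58.1% in GFP-positive and 29.8 to 32.7% in GFP-negative libraries. Pdgfa led in GFP-negative small intestinal libraries, with 52.5 to 64.4% against 27.8 to 36.6% in GFP-positive ones. It also led in each GFP-negative colonic library, by less, with 32.3 to 43.6% in GFP-positive and 35.7 to 39.2% in GFP-negative colonic libraries. Pdgfc gave 2.36 to 4.35% in GFP-positive and 13.8 to 21.9% in GFP-negative colonic libraries, and 10.6 to 15.01% in GFP-positive and 5.19 to 7.65% in GFP-negative small intestinal libraries. A share moves when any other ligand moves, so these are a description of the mixture and not separate tests. TPM and counts did not always rank libraries alike. Pdgfa in GFP-negative colonic replicates 1 and 2 stood at 24.6 and 14.7 CPM but at 2.15 and 2.56 TPM. Pdgfb in GFP-positive colonic replicates 1 and 2 had 34 and 36 estimated counts but 0.185 and 0.512 TPM. The small lead of Pdgfa over Pdgfd in GFP-negative colonic libraries is therefore uncertain.

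The ratio of Pdgfra to Pdgfrb TPM within a library does not depend on library size. For small intestinal libraries it was 8.61, 7.40 and 11.0 in GFP-positive and 4.06, 3.63 and 5.67 in GFP-negative libraries. The groups did not overlap, and the mean log2 ratio was higher by 1.02 in GFP-positive cells (exact permutation p = 0.1, two-sided, the smallest that 3 against 3 libraries allow; 0.2 adjusted over 4 comparisons). GFP-negative small intestinal replicate 2, which had the highest Pdgfrb CPM, had the lowest ratio of the 12. In the colon the ratio was 9.83, 10.8 and 7.02 in GFP-positive and 7.66, 7.90 and 7.78 in GFP-negative libraries. Here the groups overlapped, at a difference of 0.22 (exact permutation p = 0.4, two-sided), and both receptors fell together.

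Between regions, the ratio in GFP-negative colonic libraries lay above that in GFP-negative small intestinal libraries without overlap, a difference of 0.83 (exact permutation p = 0.1, two-sided, 0.2 adjusted over 4 comparisons). In GFP-positive cells it differed by 0.03 (exact permutation p = 1.0, two-sided). These designs cannot reach p under 0.05.

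**Figure D3:**
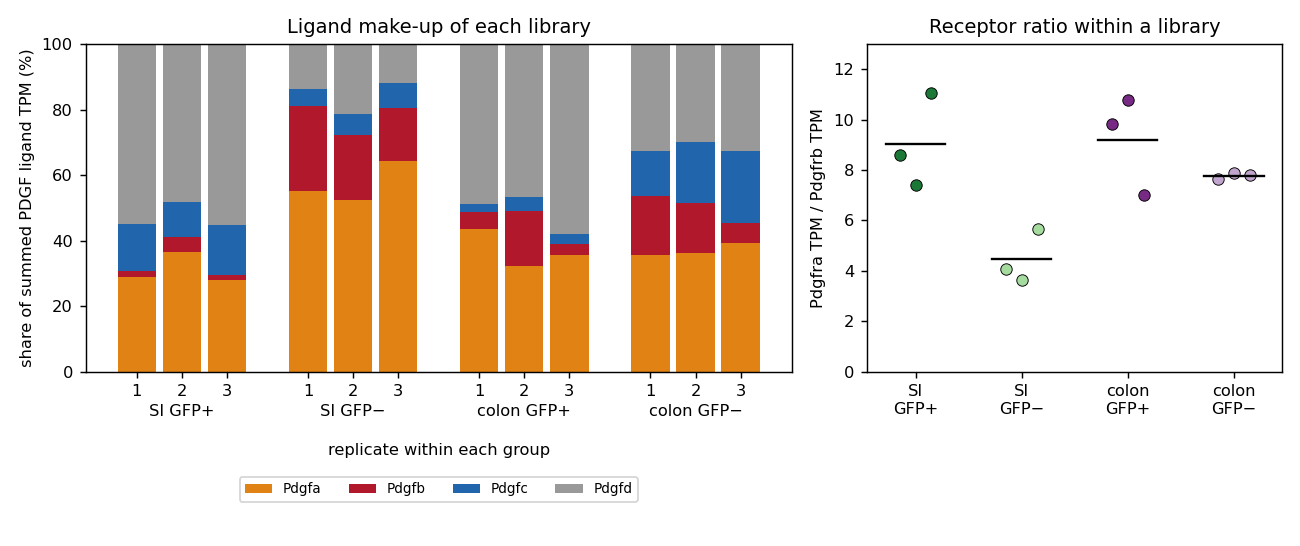
Left, share of the summed TPM of the 4 PDGF ligands given by each ligand, 1 bar per library; right, Pdgfra TPM divided by Pdgfrb TPM, with points for libraries and bars for group means. Pdgfd gives 46.5% or more in all 6 GFP-positive libraries and 32.7% or less in all 6 GFP-negative ones, and the receptor ratio is lowest in the 3 GFP-negative small intestinal libraries.

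Of 11 tested genes whose products cut, inhibit the cutting of or hold PDGF ligands, 4 were called higher and 2 lower in GFP-positive small intestinal cells, where 4.24% of all tested genes were called higher and 6.63% lower. The list's median log2 fold change was 0.44, against -0.03 for all tested genes. Plat, the tissue plasminogen activator that activates PDGF-C, fell to a mean of 38.8 CPM in GFP-positive against 101.6 CPM in GFP-negative cells (log2 fold change -1.39 ± 0.24, edgeR adjusted p = 0.00307). Serpini1, whose product neuroserpin inhibits that protease, rose to 40.1 CPM in GFP-positive against 9.45 CPM in GFP-negative cells (2.08 ± 0.34, edgeR adjusted p = 0.00197). Plau, the urokinase that activates PDGF-D, rose to 110.0 CPM in GFP-positive against 26.0 CPM in GFP-negative cells (2.09 ± 0.51, edgeR adjusted p = 0.0214), and Pcsk6, a proprotein convertase gene, rose as well (1.25 ± 0.25, edgeR adjusted p = 0.00743). With the replicate pair as a block the Plau call was lost (adjusted p = 0.0718), as it was without GFP-positive replicate 1 or 2 or GFP-negative replicate 1 (up to 0.0873). Without GFP-negative replicate 1 or GFP-positive replicate 1 or 2 the list's count was 2 higher and 1 lower. The Plat call was lost on the TPM scale (-0.81, limma adjusted p = 0.137), and that of Pcsk6 when only the libraries compared were fitted (adjusted p = 0.0775), a setting under which 1 gene of the list was called higher and 1 lower.

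In the colon 1 of the 11 was called, a higher one, where 4.62% and 4.06% of all tested genes were. That gene was Pcsk5, another proprotein convertase gene, at 534.7 CPM in GFP-positive and 193.5 CPM in GFP-negative cells (log2 fold change 1.47 ± 0.25, edgeR adjusted p = 0.00259). Plat stood at 96.7 CPM in GFP-positive and 63.1 CPM in GFP-negative colonic cells (0.62 ± 0.24, edgeR adjusted p = 0.156). Its effect in the colon minus that in the small intestine was 2.00 ± 0.34 (edgeR adjusted p = 0.0152), a call lost on the TPM scale (1.21, limma adjusted p = 0.194). When only the libraries compared were fitted, the colonic count was 4 higher and 2 lower.

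Of 5 genes for receptor partners, 1 was called higher and 3 lower in GFP-positive small intestinal cells, against 4.24% and 6.63% of all tested genes. In the colon 0 were called higher and 2 lower, against 4.62% and 4.06%. Cspg4, the NG2 proteoglycan that binds PDGF-AA and is also on the pericyte list, averaged 19.0 CPM in GFP-positive and 196.4 CPM in GFP-negative small intestinal cells (log2 fold change -3.37 ± 0.35, edgeR adjusted p = 0.000201). In the colon it averaged 23.5 CPM in GFP-positive and 82.1 CPM in GFP-negative cells (-1.81 ± 0.33, edgeR adjusted p = 0.00395). Nrp1, the coreceptor neuropilin-1, fell in both regions, at log2 fold changes of -0.998 ± 0.25 in the small intestine (edgeR adjusted p = 0.0212) and -1.50 ± 0.25 in the colon (edgeR adjusted p = 0.00257). Lrp1, an endocytic receptor that associates with the beta receptor, was called higher in the small intestine (1.103 ± 0.31, edgeR adjusted p = 0.0401) and Itgb3, the integrin beta 3 gene, lower (-0.70 ± 0.18, edgeR adjusted p = 0.0286). The Lrp1 call was kept in 1 and the Itgb3 call in 3 of the 12 fits that left out 1 library. When only the libraries compared were fitted, the small intestinal calls of Nrp1, Lrp1 and Itgb3 were lost (adjusted p = 0.145, 0.242 and 0.1997), as they were on the TPM scale (limma adjusted p = 0.211, 0.115 and 0.229).

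Among 22 genes for adaptors and transducers, 3 were called higher and 2 lower in GFP-positive cells in each region, against 4.24% and 6.63% of all tested genes for the small intestine and 4.62% and 4.06% for the colon. Fyn, a Src family kinase gene, was higher in both, at log2 fold changes of 0.68 ± 0.17 in the small intestine (edgeR adjusted p = 0.0233) and 0.93 ± 0.17 in the colon (edgeR adjusted p = 0.00495). Nck2, an SH2 and SH3 adaptor gene, was lower in both, at -1.34 ± 0.31 (edgeR adjusted p = 0.0146) and -1.25 ± 0.31 (edgeR adjusted p = 0.0230). Src fell in the small intestine (-1.06 ± 0.27, edgeR adjusted p = 0.0225) and in colonic cells (-0.95 ± 0.27, edgeR adjusted p = 0.0446), and Yes1 and Nck1 rose in the colon (1.33 ± 0.27 and 1.02 ± 0.25, edgeR adjusted p = 0.00825 and 0.0196). Pik3r1, the regulatory subunit of PI3 kinase, rose in the small intestine (0.76 ± 0.19, edgeR adjusted p = 0.0198) and stood at -0.38 ± 0.19 in the colon (edgeR adjusted p = 0.300). With the replicate pair as a block, the small intestinal count was 5 higher and 1 lower, and the small intestinal Src call was lost (adjusted p = 0.0619). Without GFP-positive small intestinal replicate 1 the count was 0 higher and 0 lower, as it was when only the libraries compared were fitted, where Pik3r1 had an adjusted p of 0.208, Nck2 of 0.0812, Fyn of 0.189 and Src of 0.121. On the TPM scale these 4 small intestinal calls were lost too (limma adjusted p = 0.386, 0.685, 0.184 and 0.492). In the colon the count was 6 higher and 4 lower when only the libraries compared were fitted, and the count of lower genes was 0 without any 1 of colonic GFP-negative replicates 1 to 3 or colonic GFP-positive replicates 1 and 2, and 1 without colonic GFP-positive replicate 3 or small intestinal GFP-positive replicate 1. On the TPM scale the colonic calls of Yes1, Nck1, Nck2 and Src were lost (limma adjusted p = 0.0809, 0.316, 0.0556 and 0.516), and with the replicate number as a block that of Src (0.101). Over the 12 fits that left out 1 library, Fyn kept its small intestinal call in 7 and Nck2 its colonic call in 7.

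Negative regulators of the pathway were called lower for 4 of 12 genes in the colon, against 4.06% of all tested genes. For the small intestine it was 1 of 12, against 6.63%, a share near that of all genes, but this count rose under several other settings. In the colon 3 of the 4 were sprouty genes, which encode feedback inhibitors of receptor tyrosine kinase signalling. Spry4 averaged 30.5 CPM in GFP-positive and 82.7 CPM in GFP-negative cells (log2 fold change -1.44 ± 0.33, edgeR adjusted p = 0.0158), and Spry2 and Spry1 stood at -0.98 ± 0.21 and -0.996 ± 0.24 (edgeR adjusted p = 0.0112 and 0.0205). The gene called in the small intestine was Ptprj, a phosphatase that acts on the beta receptor, at -1.72 ± 0.33 (edgeR adjusted p = 0.00512), a call lost on the TPM scale (limma adjusted p = 0.143). The colonic count was 1 without GFP-positive replicate 1 or 2, and 2 without GFP-positive replicate 3 or GFP-negative replicate 1 or 2. The small intestinal count was 2 with the replicate pair as a block or without GFP-negative replicate 3, and 3 without GFP-negative replicate 2. It was also 2 with DESeq2 size factors or upper quartile factors in edgeR. With no filter, with protein-coding genes only or by DESeq2 it was 3, and on the TPM scale 0. Spry1 kept its call in 8 of the 12 fits that left out 1 library. The lists' medians were -0.22 in the colon and -0.25 in the small intestine, against -0.03 for all tested genes in each.

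Of 13 immediate early genes, which growth factors and also tissue dissociation induce, 1 was called higher in each region, against 4.24% of all tested genes for the small intestine and 4.62% for the colon. Dusp1, a MAP kinase phosphatase gene, rose in GFP-positive small intestinal cells (log2 fold change 1.77 ± 0.39, edgeR adjusted p = 0.0118), and Myc rose in GFP-positive colonic cells (1.54 ± 0.24, edgeR adjusted p = 0.00159). The median of the list was 0.60 among small intestinal and 0.57 among colonic cells, against -0.03 for all tested genes in each. With the replicate pair as a block the small intestinal count was 5 higher and 1 lower, and with the replicate number as a block the colonic count was 4 higher. When only the libraries compared were fitted, the Dusp1 call was lost (adjusted p = 0.0658).

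**Figure D4:**
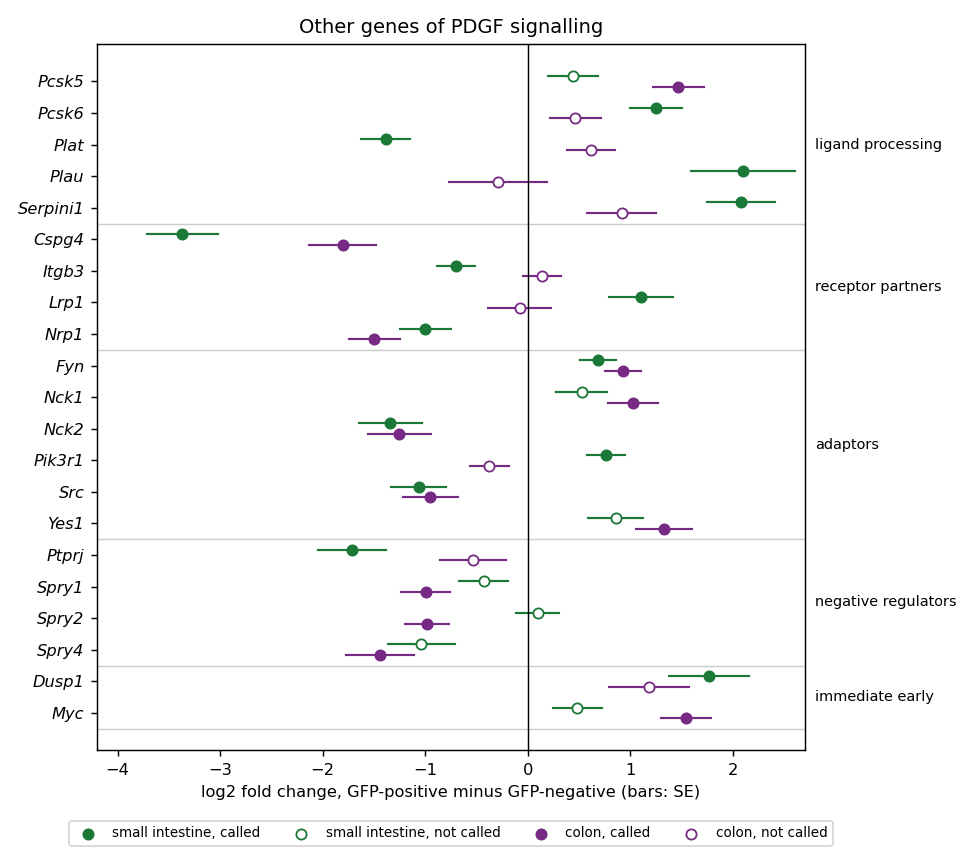
Log2 fold change with SE, between GFP-positive and GFP-negative cells, of the PDGF pathway genes named in the text, in the small intestine (green) and colon (purple), grouped by role; filled points are called at an adjusted p under 0.05. Cspg4 and Nrp1 are called lower in both regions and Fyn higher in both, while Plat is called lower in the small intestine and has a positive value in the colon.

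The closest relatives of the PDGF genes, the vascular endothelial growth factor family and the Kit and Csf1 receptor systems, held some larger changes. Of 13 tested, 2 were called higher and 2 lower in the small intestine, against 4.24% and 6.63% of all tested genes, and 3 higher and 4 lower in the colon, against 4.62% and 4.06%. Without GFP-negative small intestinal replicate 2 the small intestinal count of lower genes was 5, and without replicate 2 of either colonic fraction the colonic count of higher genes was 1. Flt1, the blood endothelial VEGF receptor, averaged 3.11 CPM in GFP-positive and 379.3 CPM in GFP-negative small intestinal cells, and 5.06 CPM in GFP-positive and 129.8 CPM in GFP-negative colonic cells (edgeR adjusted p = 0.000549 and 0.00221). Flt4, the lymphatic VEGF receptor, averaged 1217 CPM in GFP-positive and 60.1 CPM in GFP-negative small intestinal cells, and 1771 CPM in GFP-positive and 16.4 CPM in GFP-negative colonic cells (edgeR adjusted p = 0.00352 and 0.000598). Both are also on the endothelial marker lists. Kitl, the ligand of Kit, fell in both regions, at log2 fold changes of -2.12 ± 0.37 and -1.91 ± 0.37 (edgeR adjusted p = 0.00346 and 0.00632), Vegfa fell in the colon (-1.64 ± 0.28, edgeR adjusted p = 0.00270), and Vegfd rose in both, at 2.17 ± 0.35 among small intestinal and 1.52 ± 0.34 among colonic cells (edgeR adjusted p = 0.00183 and 0.0132). On the TPM scale the small intestinal call of Kitl and the colonic calls of Vegfa and Vegfd were lost (limma adjusted p = 0.0842, 0.0635 and 0.0865).

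The genes whose pattern was most like each member were found by the root mean square difference between log2 CPM values, each centred on its own mean over the 12 libraries, among 9100 protein-coding genes. Libraries share groups and depth, so these are descriptions with no test. For Pdgfb the nearest gene was Esam at 0.29, then Adgrg1 at 0.51 and Plvap at 0.70, where Pdgfb itself varied by 1.77. Esam and Plvap are on the pan-endothelial and blood endothelial lists. The pan-endothelial list as a whole went otherwise than Pdgfb in the colon. There 7 of its 8 genes were called higher in GFP-positive cells, with a median log2 fold change of 2.93, where Pdgfb stood at -1.42. For Pdgfa the nearest were Art3, Sipa1l2 and Il4ra, at 0.38 to 0.39, and for Pdgfc they were Lrp4, Col15a1 and Scube1, at 0.36 to 0.46. For Pdgfra the nearest was Clmp at 0.13, then Rai2 and Pde1a at up to 0.20. For Pdgfd they were Tcaf1, Cbx6 and Dpysl3, at 0.15 to 0.18, and for Pdgfrb they were St5, Adcy5 and Arhgef25, at 0.19 to 0.26.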

How the data were processed

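The authors deposited a table of estimated counts (expected counts per gene) and a table of log2(TPM + 1) values on the log2 scale, made with Salmon 1.1.0 and R 3.6.1 on the mm10 build, per the submitters' processing notes. The annotation, filters, rounding and strand setting are not given in the sources used here. All deposited counts are whole numbers and were taken as rounded estimates. Symbols and positions came from GENCODE M21 (GRCm38), which matched 31974 of 32052 identifiers, and promoter windows from RefSeq, which held 4 of the 6 members.

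Counts were normalised by TMM, filtered with filterByExpr (minimum count 10) and tested with edgeR 4.0.16 (R 4.3.3), by a robust quasi-likelihood fit of 4 group means over 12 libraries with 8 residual degrees of freedom, in 5 comparisons. A p-value was adjusted by the Benjamini-Hochberg method over 16757 genes. CPM values use TMM-scaled library sizes, and TPM values were back-transformed from the deposited log2 table. The standard error is the log2 fold change over the square root of F. The edgeR fit of group means was tested on counts simulated for independent libraries, in some of the comparisons. The alternatives and the other summaries were not part of that simulation.

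The members and lists were chosen with earlier results of these data known. Named pathway genes are up to 4 called genes per list and comparison with the smallest adjusted p, some of which are not reported here. Same-numbered GFP-positive and GFP-negative small intestinal libraries deviated together, with correlations of 0.32, 0.18 and 0.17 over genes. Their numbers were taken as pairs in the replicate block, which is an alternative fit. The main fit had no block, so its p-values do not use the pairs. Alternatives covered normalisation, the filter, DESeq2 1.42.0, limma 3.58.1 (voom, and log2 TPM), protein-coding genes, the libraries fitted, the replicate block and leaving out each library. CD31-sorted samples are not analysed here.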

Additional observations from a re-analysis of the deposited data

Results flagged for a closer look

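Among the PDGF genes and the tested genes of the pathway lists, the GFP effect differed between colon and small intestine for 4. These calls are from the test of the difference itself (edgeR's quasi-likelihood test, adjusted over all tested genes), which called 2.06% of all tested genes. Of the 4, 2 were PDGF genes, 1 was of 11 tested ligand processing genes and 1 of 22 adaptors and transducers. No gene of the other pathway lists was called. Pdgfc had the largest such difference among the PDGF genes, -3.32 on the log2 scale (adjusted p = 0.00335), with a log2 fold change of -3.35 in the colon and -0.03 in the small intestine. The difference for Pdgfra was -1.98 (adjusted p = 0.0425), with -1.37 in the colon and 0.61 in the small intestine. This call was kept in 2 of the 12 fits that left out 1 library, and was lost with the replicate number as a block (adjusted p = 0.0924) and on the TPM scale (limma adjusted p = 0.111). For Plat, which encodes the protease that activates PDGF-C, it was 2.00 (adjusted p = 0.0152), with 0.62 in the colon and -1.39 in the small intestine, and the call was lost on the TPM scale (limma adjusted p = 0.194). For Pik3r1 it was -1.14 (adjusted p = 0.0473), with -0.38 in the colon and 0.76 in the small intestine, and this call was kept in 3 of the 12 such fits and lost on the TPM scale (limma adjusted p = 0.630).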

How the results depend on the processing

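The small intestinal calls of Pdgfa and Pdgfb and the 3 calls of Pdgfc were kept in all 12 fits that left out 1 library and under every other setting that gave them a value. The deposited log2(TPM + 1) scale with limma gave none for Pdgfb and Pdgfc, whose means fell under its minimum of 1. The number of members called in GFP-positive against GFP-negative small intestinal cells was 2, with 1 on the TPM scale and 2 to 4 on leaving out 1 library. In the colon it was 3, with 5 when only the libraries compared were fitted and 1 to 3 on leaving out 1 library. For the difference between regions it was 2, with 1 under the replicate block, 0 on the TPM scale and 1 to 3 on leaving out 1 library. For colonic against small intestinal GFP-positive cells it was 1, with 3 when only the libraries compared were fitted, 2 by DESeq2, 0 on the TPM scale and 1 to 3 on leaving out 1 library. For GFP-negative cells it was 1, with 2 without a filter, 0 when only the libraries compared were fitted, 4 by DESeq2, 2 by limma-voom and 0 to 1 on leaving out 1 library. The shares of all tested genes called under these other settings are not given here, for the members or for the pathway lists. A larger count may thus come with more calls among all genes. Fitting only the libraries compared added Pdgfa and Pdgfb in the colon (adjusted p = 0.0329 and 0.0344), and DESeq2 added Pdgfb to the difference between regions (0.0153), while the TPM scale ended the call of Pdgfra there (0.111). The cause was not tested.

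Some values that had not passed changed sign. On leaving out 1 library, small intestinal Pdgfc ran from -0.29 to 0.13, above 0 without GFP-positive replicate 1 or 2 or GFP-negative replicate 2, and small intestinal Pdgfrb from -0.95 to 0.032, above 0 without GFP-negative replicate 2. On the TPM scale, colonic Pdgfd was -0.10, and among GFP-positive cells of the 2 regions Pdgfa was 0.29 and Pdgfd 0.15, the last running from -0.13 to 0.083 on leaving out 1 library, above 0 without GFP-positive colonic replicate 2 or small intestinal replicate 3. Pdgfrb in GFP-negative cells of the 2 regions was 0.00247 under the replicate block, 0.14 by limma-voom, 0.56 on the TPM scale, and -0.38 to 0.60 on leaving out 1 library, above 0 without colonic replicate 3 or small intestinal replicate 2. With a pseudocount of 1 the log2 receptor ratio differed by -0.11 in the colon and by -0.094 between GFP-positive cells of the 2 regions, where leaving out 1 library gave -0.11 to 0.21. The cause was not tested.

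In the colon and between regions, same-numbered libraries had correlations of 0.0093 to 0.090 and of 0.020 to 0.22. The highest, for GFP-negative replicate 3 between regions, was above the 0.18 and 0.17 of small intestinal replicates 2 and 3. Whether these numbers mark pairs is not known. Column headings also share a number, of a meaning not given, between the colonic fractions of replicate 2 and of replicate 3, and between regions for replicate 3. There the replicate block ended the call of Pdgfra in the colon (adjusted p = 0.0524) and in the difference between regions (0.0924), and no other member's call; in the small intestine it changed none. The pathway lists' counts and genes were tried under the same settings after the data had been seen. Estimated counts of 3 to 36 limit the precision of Pdgfb in GFP-positive small intestinal cells, and counts of 19 to 22 that of Pdgfc in GFP-positive colonic cells.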

Other observations

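Between the 2 gut regions, 1 of 11 tested ligand processing genes was called higher and 1 lower in GFP-positive colonic cells. The shares of all tested genes were 2.75% and 1.81%. In GFP-negative colonic cells 2 of the 11 were called higher and 0 lower, against 2.2% and 2.01% of all tested genes. Among GFP-positive cells, Serpini1 was lower in the colon than in the small intestine, at a log2 fold change of -2.24 ± 0.34 (edgeR adjusted p = 0.00238), and Plat was higher, at 1.32 ± 0.24 (edgeR adjusted p = 0.00768). Pik3r1 was lower in GFP-positive colonic cells (-0.85 ± 0.19, edgeR adjusted p = 0.0209), a call kept in 6 of 12 fits that left out 1 library.

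Among GFP-negative cells, Pcsk6 (1.32 ± 0.25, edgeR adjusted p = 0.0148) and Csf1, the colony stimulating factor gene (1.12 ± 0.22, edgeR adjusted p = 0.0157), were higher in the colon. Each of these 2 calls was kept in 10 of 12 fits that left out 1 library. Both were lost when only the libraries compared were fitted (edgeR adjusted p = 0.0816 and 0.0547). Plau (2.12 ± 0.51, adjusted p = 0.0429) and Itgav (0.70 ± 0.17, adjusted p = 0.0377) were also called higher and Cspg4 lower (-1.26 ± 0.32, adjusted p = 0.0457), calls kept in 4, 3 and 1 of 12 fits that left out 1 library. Without colonic GFP-negative replicate 2, or when only the libraries compared were fitted, 0 ligand processing genes were called higher.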
